A study of Mus musculus with 8 samples.

Results

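The genes described here are the ligands, receptors, antagonists and targets of Wnt signalling, found as the 61 rows of a table of 49671 genes whose names matched a rule based on symbols alone: 19 Wnt ligands, 12 Frizzled and Lrp receptors, 9 genes of the R-spondin axis, 10 secreted antagonists, 7 genes of Wnt secretion and the intracellular core, and 4 feedback targets. No measured value entered the rule.

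Wnt proteins are secreted, lipid-modified signals that bind Frizzled receptors and the co-receptors Lrp5 and Lrp6 and, in the canonical branch, keep beta-catenin from being degraded so that it can act with the T-cell factors on target genes. R-spondins and their Lgr receptors raise the signal by removing the ubiquitin ligases Znrf3 and Rnf43, while the Dkk, Sfrp and Wif1 proteins act outside the cell as antagonists, and Axin2, Nkd1 and Nkd2 are feedback genes that the pathway itself switches on. In the mammary gland, Wnt4 is known as a signal made by hormone-responsive luminal cells under progesterone, and Lgr5 marks basal cells.

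The values came from bulk RNA-seq of cells sorted from the mammary glands of female mice of mixed genetic backgrounds, with 2 libraries in each of 4 groups. All groups were depleted of cells bearing CD45, CD31 or CD140a. CD24+ cells with low CD29 are called luminal (40000 cells) and those with high CD29 basal (5000 cells). The number of cells goes with the gate, so its part in a gate difference cannot be told apart. CD1 luminal and CD1 basal cells came from mice of strain CD1. DNp63 luminal and DNp63 basal cells were the GFP+ cells of K8rtTA/TetOCre/Rosa26-DNp63-IRES-GFP mice, in which the keratin 8 promoter drives a doxycycline-dependent activator, the activator switches on Cre, and Cre releases DNp63, the p63 form of basal cells, together with GFP. The sources used here give neither their age nor when doxycycline was given. Transgene, strain, doxycycline and GFP gate go together, so they cannot be told apart in any comparison of DNp63 with CD1 cells. Whether paired libraries stem from different animals is not in the labels. Every p-value therefore reflects the spread of these libraries and cannot be read as one between animals.

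Values are reads per 20000000 reads assigned to genes. The libraries held 4136969 to 7206696 assigned reads, so 1 read is worth 2.775 to 4.834 and a gene listed at 0 could still stand at up to 8.33 to 14.5, the value of 3 reads (counting error only). Trp63, which the transgene can feed, stood at 61 and 45 in CD1 luminal, 5457 and 7079 in CD1 basal, 1297 and 1460 in DNp63 luminal, and 8088 and 8306 in DNp63 basal libraries. The gates matched their names: the sum of 10 luminal marker genes was 240071 to 272601 in luminal and 16244 to 41293 in basal libraries, and the sum of 6 basal marker genes was 1203 to 3321 and 154126 to 172697. Despite the depletion, the basal libraries also carried more endothelial transcripts (16 markers, summed value 52437 to 76565 against 3979 to 5295 in luminal libraries; Cdh5 at 11042 to 15106), more pericyte and vascular muscle transcripts (11 markers, 19610 to 26815 against 4543 to 6347) and more adipocyte transcripts (10 markers, 16238 to 28930 against 575 to 848). None of the endothelial or pericyte markers was at 0 in all libraries. The 14 fibroblast markers summed to 9552 and 46526 in the CD1 luminal, 17820 and 10475 in the DNp63 luminal, 17435 and 47908 in the CD1 basal and 71942 and 95438 in the DNp63 basal libraries. The second library of both DNp63 groups stood apart from all others in Xist (36 and 141, against 55545 to 111346). The sum of 4 Y-linked genes was at most 4 in every library, and at 4 and 0 in these. The reason for the low Xist was not tested.

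The bases just upstream of a ligand that was higher in luminal cells, and of a receptor and an antagonist that were higher in basal cells, are shown because the gate differences below turn on these genes. They are from RefSeq (GRCm38.p6), read 5′ to 3′ on the gene's strand, and end where the GENCODE gene begins, if that is upstream of the RefSeq start. They are Wnt4 at chr4:137277385-137277488 (plus strand), Fzd7 at chr1:59481897-59482146 (plus strand) and Wif1 at chr10:121033754-121033959 (plus strand). Capitals mark a match to a T-cell factor motif.
Wnt4: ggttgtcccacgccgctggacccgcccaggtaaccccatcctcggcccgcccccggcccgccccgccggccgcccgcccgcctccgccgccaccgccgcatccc
Fzd7: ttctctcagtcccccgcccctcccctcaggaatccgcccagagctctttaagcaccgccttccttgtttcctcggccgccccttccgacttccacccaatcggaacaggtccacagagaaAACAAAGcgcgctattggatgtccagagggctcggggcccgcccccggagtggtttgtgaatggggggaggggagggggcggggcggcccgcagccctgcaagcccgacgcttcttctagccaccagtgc
Wif1: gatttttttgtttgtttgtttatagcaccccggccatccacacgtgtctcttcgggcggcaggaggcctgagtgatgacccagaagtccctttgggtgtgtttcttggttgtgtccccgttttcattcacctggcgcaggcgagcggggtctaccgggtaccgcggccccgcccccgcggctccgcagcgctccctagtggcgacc
The motif was searched in 4 spellings, CTTTGAA, then CTTTGAT, then CTTTGTA and finally CTTTGTT, on both strands of RefSeq windows of 300 bases, 250 before and 50 after the start. Of the 61 members, 40 had an entry, with 50 windows. A match was found in 8 of these windows (16%), against 16.9% of all 32851 windows, which is a share close to the background. Fzd7 held CTTTGTT on the minus strand, beginning 130 bases before the start, whereas the windows of Wnt4, Wif1, Axin2, Nkd1 and Nkd2 held none of the 4 spellings. A window without these letters says nothing about the factor elsewhere at the gene. The Wnt4 window was 84.3% G and C with 51 CpG, that of Fzd7 66.7% with 24, and that of Wif1 63% with 25, above a median of 52.7% G and C over all windows.

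The first question was how the pathway divides between the cell layers. In CD1 mice, most of the tested genes for receptors and R-spondin receptors were higher in the basal gate. Wnt4, Wnt7b and Wnt5b, which were among the most abundant ligands of the luminal gate, were lower in the basal gate. Of the antagonists and feedback targets, Sfrp1, Dkk3 and Nkd2 were higher in the basal gate and Sfrp2 was not called. Wif1, Sfrp5, Axin2 and Nkd1 were also called higher but entered the test through that gate, as set out below. Of the 43 members tested, 27 had higher values in the basal gate of CD1 mice and 4 lower ones, with a median log2 difference of 1.33. Over all 16900 genes tested, 24.6% were called higher and 19.7% lower, with a median of -0.002. In DNp63 mice, 30 members were higher and 4 lower in the basal gate, with a median of 1.83, against 26.7% and 21.3% of all genes, or 48% called in all. In CD1 mice 44.3% of all genes were called. A gene was called at a limma adjusted p under 0.05, and each log2 difference is on the scale of log2(value + 8), which understates the change of low genes. Genes were tested where 2 or more libraries reached a value of 40. Wnt6, Wnt10a, Wnt16, Fzd9, Sfrp5, Wif1, Axin2 and Nkd1 reached 40 in no luminal library and Wnt9a and Sfrp4 in 1, so these 10 entered the test through the basal gate, where they were higher, and their calls are no support for a difference of the members. Among the 33 members that reached 40 in at least 2 libraries of each gate, 19 were higher and 4 lower in CD1 basal cells (median 0.73), and 20 were higher and 4 lower in DNp63 basal cells (median 1.101). The share of all genes under this stricter filter was not computed, so these counts have no matching background. In bulk libraries, fewer cells of a type and less RNA per cell cannot be told apart.

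**Figure D1:**
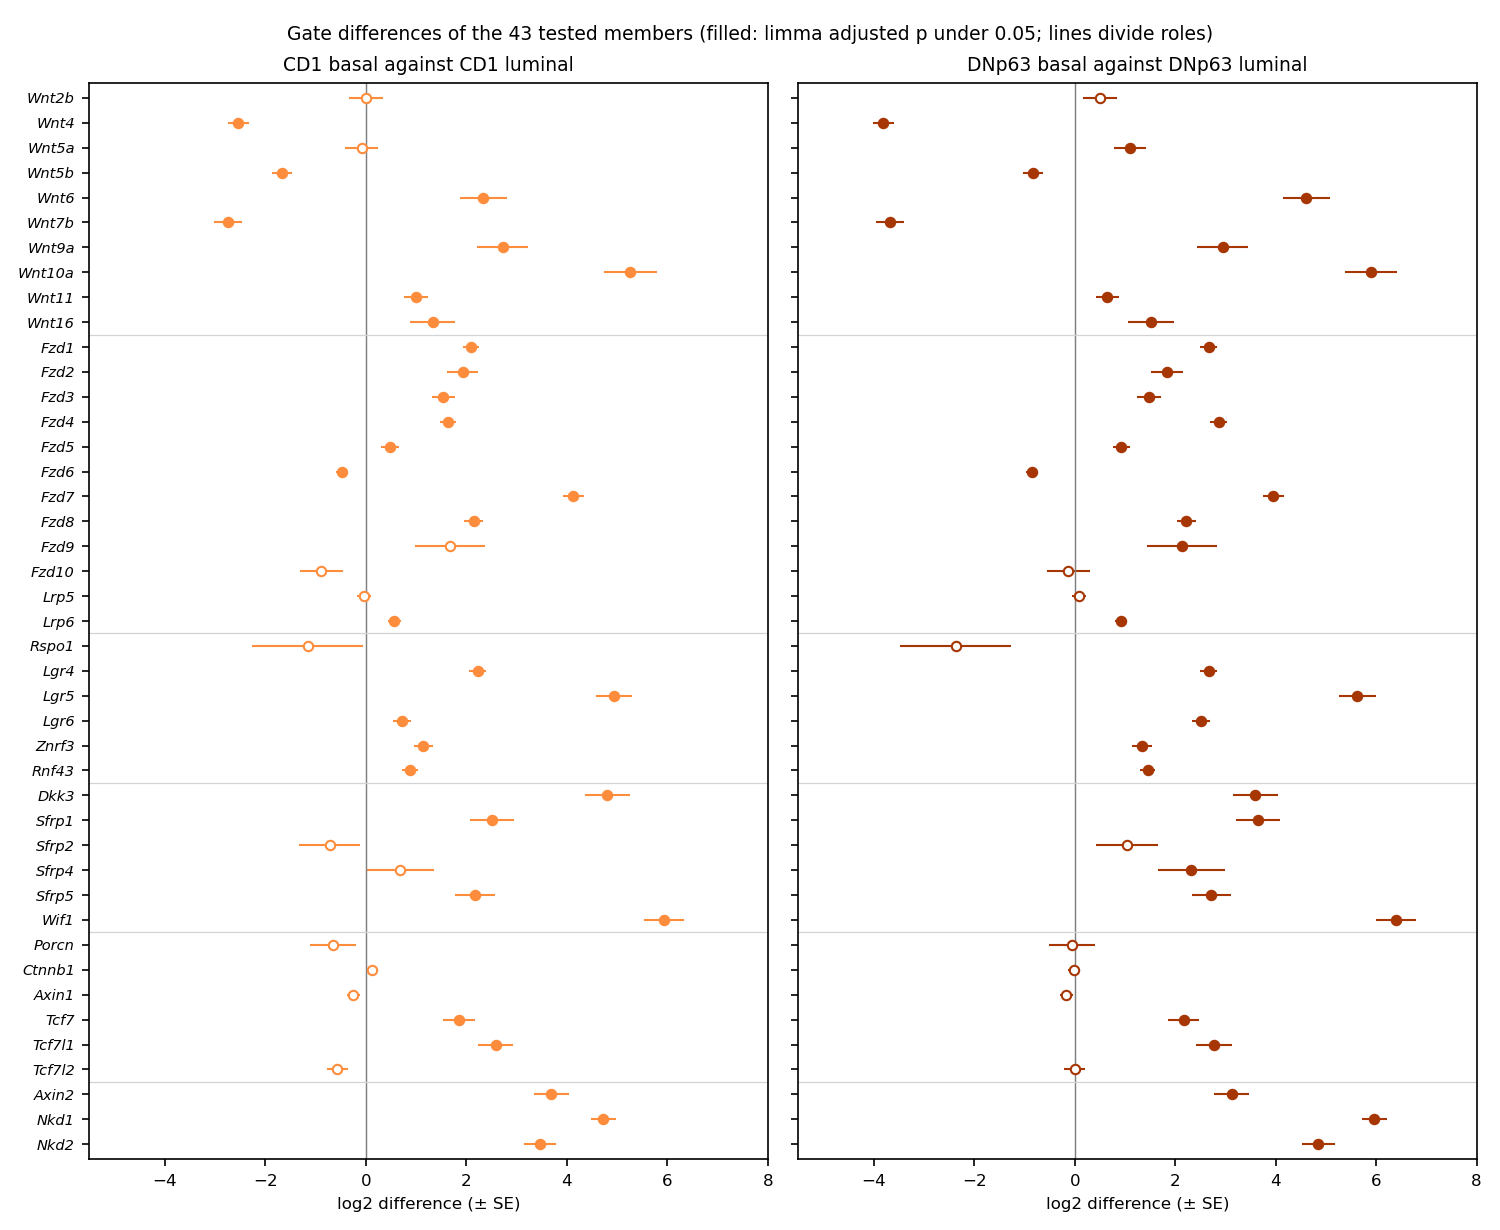
Log2 difference between the basal and the luminal gate (horizontal axis, ± SE from limma) for each of the 43 tested members, in CD1 mice (left) and DNp63 mice (right), with filled points for a limma adjusted p under 0.05 and grey lines between roles. Wif1, Wnt10a, Lgr5, Dkk3 and Nkd1 lie farthest to the right in the CD1 panel and Wif1, Nkd1, Wnt10a and Lgr5 in the DNp63 panel, while Wnt4, Wnt7b, Wnt5b and Fzd6 are the filled points to the left of 0.

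The 31 members called in CD1 mice were all called in the same direction in DNp63 mice. They were 100% of the CD1 list and 91.2% of the 34 members of the DNp63 list, against 80.3% and 74.1% for all genes tested. Among the 33 members that reached 40 in both gates, the 23 called in CD1 mice were 95.8% of the 24 called in DNp63 mice. A share of all genes under that filter was not computed. The remaining 3 of the DNp63 list were Sfrp4 (limma adjusted p = 0.0197 at 2.32, against limma adjusted p = 0.438 at 0.69 in CD1), Fzd9 (limma adjusted p = 0.0326 at 2.13, against limma adjusted p = 0.0809 at 1.68) and Wnt5a, whose limma adjusted p was 0.0218 at 1.101, against 0.864 at -0.08 in CD1. Each of these 3 calls was lost without the second DNp63 luminal or the second DNp63 basal library (limma adjusted p = 0.115 and 0.139 for Sfrp4, 0.205 and 0.214 for Fzd9, and 0.155 and 0.135 for Wnt5a). For none of these 3 did the difference between the mice itself pass the test (limma adjusted p = 0.641, 0.939 and 0.389 for the interaction).

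Among the ligands, the luminal gate was dominated by Wnt4. Wnt4 (ENSMUSG00000036856, chr4:137277489-137299726) stood at 5447 and 4590 in CD1 luminal, 966 and 759 in CD1 basal, 6006 and 4132 in DNp63 luminal, and 371 and 281 in DNp63 basal libraries. Every luminal library was above every basal library, and the DNp63 basal libraries were the lowest. The log2 difference between basal and luminal cells was -2.54 ± 0.21 (SE; limma adjusted p = 3.79e-05) in CD1 mice and -3.81 ± 0.21 (3.63e-06) in DNp63 mice. Wnt7b, which signals through the canonical branch in several epithelia, ran parallel to it, with 834 and 1334 in CD1 luminal, 156 and 148 in CD1 basal, 897 and 670 in DNp63 luminal, and 55 and 44 in DNp63 basal libraries. Its gate differences were -2.74 ± 0.28 (limma adjusted p = 9.47e-05) in CD1 and -3.67 ± 0.28 in DNp63 mice. Wnt5b, a ligand mostly linked to beta-catenin-independent signalling, was lower by a smaller amount, with 582 to 635 in CD1 luminal, 358 to 360 in DNp63 luminal and 160 to 211 in the 4 basal libraries. The differences were -1.66 in CD1 (limma adjusted p = 0.00027) and -0.83 in DNp63 mice (0.00898), and the latter was lost without the second DNp63 basal library (0.0599).

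The basal gate carried a different set of ligands. Wnt10a (chr1:74791516-74804179), a canonical ligand of skin and its appendages, was at 0, 4, 3 and 4 in the luminal libraries, which is at most 1 read each. Its basal values were 632 and 212 in CD1 mice and 843 and 498 in DNp63 mice. Counted as reads, CD1 basal libraries held 191 and CD1 luminal libraries 1, a depth-adjusted ratio of 225 with an exact 95% counting interval of 39.9 to 8930, and DNp63 basal libraries held 303 against 2 in DNp63 luminal, a ratio of 210 (57.7 to 1740). The spread between libraries, such as 632 against 212, is not part of these intervals. The fitted log2 differences were 5.27 ± 0.52 (SE; limma adjusted p = 8.54e-05) and 5.89 ± 0.52 (3.89e-05). Wnt6 lies 6.19 kb from Wnt10a on chromosome 1 and was also higher in basal cells, at 179 and 80 in CD1 and 224 and 305 in DNp63 basal libraries against 11 and 26 in CD1 and 3 and 4 in DNp63 luminal libraries. Its gate differences were 2.34 ± 0.47 (limma adjusted p = 0.00385) in CD1 and 4.61 ± 0.47 (8.36e-05) in DNp63 mice. The difference between the mice did not pass (limma adjusted p = 0.219 for the interaction). Wnt9a was at 155 to 253 in the basal and 8 to 42 in the luminal libraries. Its neighbour Wnt3a, 16.2 kb away on chromosome 11, was at 0 in all 8 libraries.

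Other ligands differed less between the gates. Wnt11, a ligand of cell movement, was at 305 and 308 in CD1 luminal and 480 and 802 in CD1 basal libraries (1.00, limma adjusted p = 0.00837), and at 525 to 617 and 803 to 869 in the DNp63 gates (0.65, limma adjusted p = 0.0463). The DNp63 call was lost without any 1 of the 4 DNp63 libraries (0.0866 to 0.207). Wnt16 was low throughout, at 4 to 15 in luminal and 28 to 49 in basal libraries (1.33, limma adjusted p = 0.0395 in CD1), a call that was lost without any 1 library other than the first CD1 luminal one (0.0514 to 0.203). Wnt5a ranged from 587 to 1293 in luminal and from 802 to 1775 in basal libraries, which overlap, and Wnt2b from 90 to 145 and from 100 to 169. The other 9 Wnt genes, Wnt1, Wnt2, Wnt3, Wnt3a, Wnt7a, Wnt8a, Wnt8b, Wnt9b and Wnt10b, reached at most 39 in any library and were not tested. Wnt7a, like Wnt3a, was at 0 in every library. For Wnt5a, Wnt7b and Wnt11, 4.58%, 6.61% and 8.8% of the exon bases overlap a gene on the other strand, and because the strand setting of the counting is not given, their reads cannot be told apart there.

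Per kilobase of exon, the 19 ligands together summed to 1506 to 2088 in luminal and 792.2 to 1151 in basal libraries. Wnt4 made up 57.5% to 68.6% of that sum in the 4 luminal libraries, 21.3% and 22.8% in the CD1 basal and 7.68% and 6.54% in the DNp63 basal libraries. Wnt10a made up 10.8% to 29.7% in the basal and at most 0.108% in the luminal libraries. In the CD1 basal libraries the sum was spread over Wnt4, Wnt10a, Wnt11 (17.9% and 14.6%) and Wnt5a (9.49% and 18.9%), and in the second of them Wnt4 and Wnt5a both exceeded Wnt10a.

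**Figure D2:**
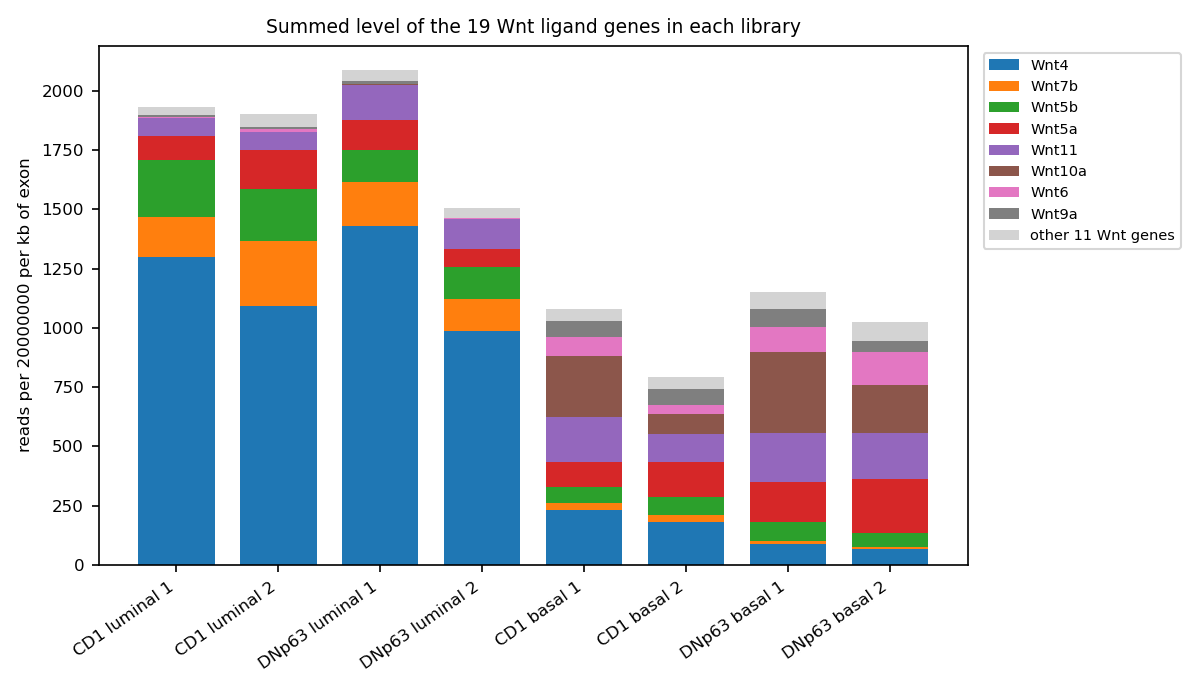
Summed level of the 19 Wnt ligand genes in each library (bar height, reads per 20000000 per kb of exon), divided by gene, with the 11 lowest drawn together. Wnt4 fills 57.5% to 68.6% of each luminal bar, and Wnt10a, nearly absent from the luminal bars, fills 10.8% to 29.7% of the basal bars.

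On the receptor side, 8 of 12 genes were higher and 1 was lower in CD1 basal cells, and 9 were higher and 1 lower in DNp63 basal cells. Fzd9, called only in DNp63 mice, had entered the test through the basal gate. Fzd7 (chr1:59482424-59486955), a Frizzled that binds many Wnt proteins, was the most abundant Frizzled of the basal gate per kilobase. It stood at 703 and 571 in CD1 luminal, 9655 and 13155 in CD1 basal, 406 and 443 in DNp63 luminal, and 5163 and 7508 in DNp63 basal libraries. The gates were far apart in both mice, with differences of 4.13 ± 0.22 (SE; limma adjusted p = 3.44e-06) in CD1 and 3.96 ± 0.22 in DNp63 mice. Fzd4, the receptor for norrin in blood vessels, was at 890 and 860 in CD1 luminal, 2569 and 2927 in CD1 basal, 383 and 384 in DNp63 luminal, and 3115 and 2234 in DNp63 basal libraries. Its gate differences were 1.64 ± 0.16 in CD1 and 2.86 ± 0.16 in DNp63 mice (limma adjusted p = 9.33e-05 and 4.07e-06). The endothelial sum given above moved the same way as Fzd4 between the gates, and its part in the difference was not tested.

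Fzd1, Fzd2, Fzd3 and Fzd8 were also higher in both basal groups, by 1.48 to 2.67 log2 units. Fzd5 was higher by 0.48 in CD1 (limma adjusted p = 0.0497) and 0.93 in DNp63 mice. Of its exon bases, 17.8% overlap a gene on the other strand. The CD1 call of Fzd5 was lost without any 1 library other than the first CD1 luminal one (0.0564 to 0.212). Fzd6 went the other way. It was at 1319 to 1609 in the luminal and 774 to 994 in the basal libraries, a difference of -0.47 ± 0.12 (limma adjusted p = 0.0134) in CD1 and -0.86 ± 0.12 (0.000564) in DNp63 mice. The CD1 call was lost without the second CD1 basal library (0.0609). Of the co-receptors, Lrp6 was higher in basal cells by 0.57 and 0.93 log2 units, whereas Lrp5 was at 3822 to 4825 in luminal and 3965 to 4670 in basal libraries and did not pass the test. Fzd10 (68 to 360 across the libraries) did not pass either. Fzd9 was at most 97.

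In the R-spondin axis, the receptors Lgr4, Lgr5 and Lgr6 and both ligases were higher in the basal gate of both mice, 5 of the 6 genes tested. Lgr5 (chr10:115450311-115587780), a receptor known as a stem cell marker in gut and skin, stood at 86 and 193 in CD1 luminal, 5027 and 3550 in CD1 basal, 98 and 67 in DNp63 luminal, and 4852 and 3472 in DNp63 basal libraries. The difference was 4.94 ± 0.36 (SE; limma adjusted p = 1.95e-05) in CD1 and 5.63 ± 0.36 (6.85e-06) in DNp63 mice, and the levels of the 2 basal groups overlapped. Lgr4, the most widely expressed of the family, was at 1008 to 1447 in luminal and 5302 to 7291 in basal libraries. Lgr6 (chr1:134983301-135105276) was high in both layers: 3330 and 3512 in CD1 luminal, 6547 and 4911 in CD1 basal, 1849 and 1867 in DNp63 luminal, and 8619 and 11395 in DNp63 basal libraries. Per kilobase it was the most abundant of the 3 receptors in luminal cells, at a mean of 499 in CD1 luminal cells against 209 for Lgr4 and 13.6 for Lgr5. Its gate difference was 0.73 ± 0.18 in CD1 (limma adjusted p = 0.00993; 0.0741 without the first CD1 basal library) and 2.52 ± 0.18 in DNp63 mice (1.09e-05).

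The ligases, which remove Frizzled receptors from the membrane, moved less. Znrf3 was higher by 1.15 and Rnf43 by 0.88 log2 units in CD1 basal cells (limma adjusted p = 0.00172 and 0.00167), and by 1.34 and 1.45 in DNp63 basal cells. Of the ligands of the Lgr receptors, Rspo1 alone was tested. It was at 479 and 23 in CD1 luminal, 87 and 24 in CD1 basal, 217 and 282 in DNp63 luminal, and 22 and 63 in DNp63 basal libraries. The first CD1 luminal library was the highest of all and the second among the lowest, and no comparison of Rspo1 passed the test. Without the second CD1 luminal library, the CD1 gate difference was -3.13 and passed (limma adjusted p = 0.00765). Rspo2, Rspo3 and Rspo4 reached at most 25 and were not tested.

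Among secreted antagonists, 4 of 6 tested were higher in CD1 basal cells and 5 in DNp63 basal cells, and none was lower. Wif1 and Sfrp5, called in both mice, and Sfrp4, called in DNp63 mice, had entered the test through the basal gate. Their calls are no support for a difference of the antagonists. Wif1 (chr10:121033960-121100650), which binds Wnt proteins outside the cell, stood at 32 and 12 in CD1 luminal, 2138 and 1370 in CD1 basal, 17 and 24 in DNp63 luminal, and 1720 and 2877 in DNp63 basal libraries. Its gate differences were 5.93 ± 0.40 (SE; limma adjusted p = 1.22e-05) and 6.39 ± 0.40 (5.88e-06). In the main fit they were the largest of any tested member in both mice, on a scale that understates the change of low genes. Under the alternatives, Wnt10a ran from 3.58 to 6.83 in CD1 mice and from 4.30 to 7.19 in DNp63 mice. Wif1 ran from 5.05 to 6.42 and from 5.49 to 6.83, so it was not ahead of Wnt10a in every setting. Dkk3 (chr7:112116017-112159057), a Dickkopf relative whose action on Wnt signalling is less settled than that of Dkk1, stood at 29 and 93 in CD1 luminal, 1502 and 1929 in CD1 basal, 150 and 274 in DNp63 luminal, and 2226 and 2524 in DNp63 basal libraries. The gates were clearly apart, by 4.81 ± 0.45 (limma adjusted p = 6.47e-05) in CD1 and 3.60 ± 0.45 in DNp63 mice.

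The Sfrp proteins resemble the Wnt-binding part of Frizzled receptors. Sfrp1 was at 84 to 360 in luminal and 957 to 1586 in basal libraries (2.51 in CD1, limma adjusted p = 0.00206), and Sfrp5 at 18 to 39 and 133 to 338. Sfrp2 ran from 171 to 767 in luminal and from 147 to 414 in basal libraries and did not pass in either mouse. Of its exon bases, 16.1% overlap a gene on the other strand. Its highest value, 767, was in the second CD1 luminal library, where the fibroblast sum was 46526 against 9552 in the first. Sfrp4 was at 63 in that library and at 8 to 20 in the other luminal libraries, and at 47 to 175 in the basal libraries. The part of fibroblast RNA in the Sfrp2 and Sfrp4 values was not tested. Dkk1, Dkk2, Dkk4 and Notum reached at most 34 and were not tested.

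Of the 6 genes of secretion and the intracellular core that were tested, 2 were higher in the basal gate of each mouse and 4 were not called. Ctnnb1 (chr9:120929216-120960507), the gene of beta-catenin, had the highest level per kilobase over all groups and stood at 8014 and 7617 in CD1 luminal, 9294 and 7921 in CD1 basal, 10052 and 9794 in DNp63 luminal, and 8940 and 9336 in DNp63 basal libraries. Its gate difference was 0.13 ± 0.12 in CD1 and -0.01 ± 0.12 in DNp63 mice (limma adjusted p = 0.383 and 0.941), and 15.1% of its exon bases overlap other genes. Axin1, the scaffold of the destruction complex, stayed within 999 to 1350 in all libraries. The T-cell factor genes differed from one another: Tcf7 was at 130 to 252 in luminal and 563 to 842 in basal libraries and Tcf7l1 at 98 to 235 and 802 to 1105, whereas Tcf7l2, the most abundant of them, ran from 3217 to 5342 in luminal and 2788 to 3887 in basal libraries and did not pass. Tcf7l1 was higher by 2.59 and Tcf7 by 1.85 log2 units in CD1 basal cells (limma adjusted p = 0.000482 and 0.00161). Lef1 reached at most 34 and was not tested. Porcn, the acyltransferase that Wnt secretion needs, lies on chromosome X and was at 208 to 589 with overlapping groups.

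All 3 feedback targets tested were higher in the basal gate of both mice, Axin2 and Nkd1 being among the members that passed the filter through that gate. Axin2, the most used readout of canonical signalling, stood at 22 and 34 in CD1 luminal, 440 and 460 in CD1 basal, 17 and 28 in DNp63 luminal, and 194 and 295 in DNp63 basal libraries. Both DNp63 basal libraries were below both CD1 basal libraries, yet the difference of -0.87 ± 0.35 did not pass (limma adjusted p = 0.396). Nkd1 (chr8:88521354-88594884), a Dishevelled-binding inhibitor, stood at 36 and 26 in CD1 luminal, 1067 and 967 in CD1 basal, 12 and 16 in DNp63 luminal, and 1223 and 1344 in DNp63 basal libraries. Its gate difference was 4.73 ± 0.25 in CD1 (limma adjusted p = 3.36e-06) and 5.96 ± 0.25 in DNp63 mice (8.62e-07). Nkd2 (chr13:73818534-73847631) was at 43 and 49 in CD1 luminal, 577 and 603 in CD1 basal, 25 and 44 in DNp63 luminal, and 856 and 1436 in DNp63 basal libraries. Sp5, also a target in many tissues, was at 0 or 4 in every library. Endothelial, pericyte and adipocyte transcripts were all higher in the same gate as these genes, and their part in the values was not tested.

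**Figure D3:**
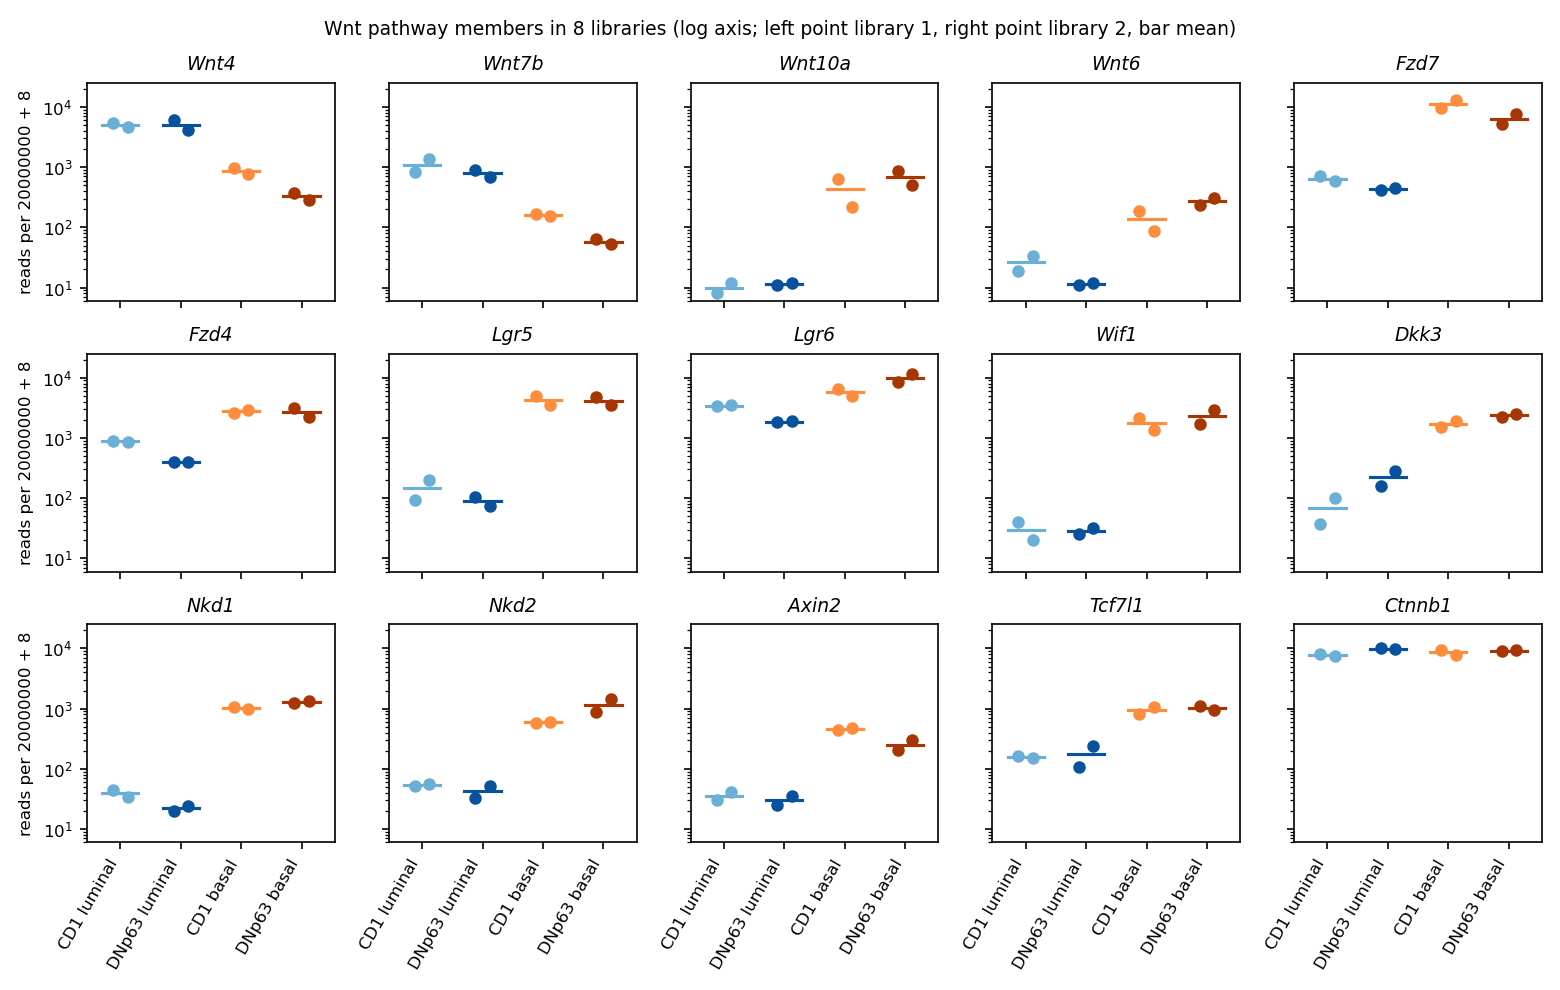
Value of 15 members in each of the 8 libraries (vertical log axis, reads per 20000000 plus 8), with 1 point per library and a bar at the mean of the 2 libraries of a group. Wnt4 and Wnt7b are high in the luminal groups, Wif1, Lgr5, Nkd1 and Axin2 in both basal groups, Lgr6 and Ctnnb1 are high in all 4, and the 2 points of a group are close together next to the distance between gates for most of the genes drawn.

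The next question was whether luminal cells with the DNp63 cassette differ from CD1 luminal cells in these genes. Of the 43 tested members none was called higher and 2 were called lower, Fzd4 and Lgr6. That is 4.65% of the members, close to the 4.36% of all genes called (2.46% higher and 1.9% lower). A p that misses the threshold does not show equal levels. The median over the members was -0.17, against -0.016 over all genes. Fzd4 fell by 1.26 on the log2 scale (SE 0.16, limma adjusted p = 0.00462), from 890 and 860 to 383 and 384. None of the 16 endothelial markers was called between these groups, but their median was -0.53, with summed values of 4396 and 3979 against 5295 and 4344 in CD1 luminal libraries, and the median of the 11 pericyte markers was -0.505 (5356 and 4543 against 6347 and 5844). Their part in the fall of Fzd4 was not tested. Lgr6 fell by 0.97 (SE 0.18, limma adjusted p = 0.0192), from 3330 and 3512 to 1849 and 1867. In both genes the 2 libraries of a group nearly coincided and the groups lay well apart. Fitted on these 4 libraries alone, neither call held (limma adjusted p = 0.0551 for Fzd4 and 0.0594 for Lgr6), and that of Lgr6 was also lost without the second CD1 luminal library (0.0601) and without the first or the second DNp63 luminal library (0.103 and 0.131).

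Of the 27 members that the CD1 comparison called higher in the basal gate, 26 had both DNp63 luminal libraries below both CD1 basal libraries. The exception was Wnt11, at 617 and 525 in DNp63 luminal against 305 and 308 in CD1 luminal and 802 and 480 in CD1 basal libraries. Its difference of 0.79 between the luminal groups did not pass (limma adjusted p = 0.113). The 27 were selected for high values in these same CD1 basal libraries, and some passed the filter only through the basal gate. The same count over all genes was not made, so the 26 are no result about the members as a set. Wif1 (17 and 24, against 32 and 12 in CD1 luminal cells), Wnt10a (3 and 4, against 0 and 4) and Axin2 (17 and 28, against 22 and 34) overlapped the CD1 luminal libraries, while Nkd1 (12 and 16, against 36 and 26; -0.88, limma adjusted p = 0.0949) lay below them without passing. Dkk3 was the member with the largest difference upwards, 1.70 ± 0.45 (SE), from 29 and 93 to 150 and 274, but it did not pass (limma adjusted p = 0.0775). It passed without the second CD1 luminal library (2.44, limma adjusted p = 0.0082). Lgr5 differed by -0.71 (limma adjusted p = 0.377) and passed only without the first CD1 luminal library, at -1.27 (limma adjusted p = 0.0428). An unadjusted p under 0.05 was found for 11 of the 43 members, against 17.2% of all genes.

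In the basal gate, 1 member was called between DNp63 and CD1 cells, and it was lower. Of all genes, 0.444% were called lower, 0.207% higher and 0.651% in all. The median over the members was 0.15, against 0 over all genes, and 11 of the 43 members had an unadjusted p under 0.05, against 11.2% of all genes. The called member was Wnt4, which fell by 1.36 (SE 0.21, limma adjusted p = 0.0379), from 966 and 759 to 371 and 281. Wnt7b lay beside it at -1.47 ± 0.28 (limma adjusted p = 0.0654), from 156 and 148 to 55 and 44, without passing. The call of Wnt4 was lost when genes were not filtered (limma adjusted p = 0.0734), with voom on recovered reads (0.145), when the 4 basal libraries were fitted alone (0.0505), and without any 1 of these 4 libraries (0.0925 to 0.265).

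Luminal transcripts moved in the same way. Of 10 luminal markers 6 were called lower in DNp63 basal than in CD1 basal cells, with a median of -1.01, and their sum was 16244 and 18327, against 41293 and 37072. Per 1000 of this luminal sum, Wnt4 was at 23.4 and 20.5 in the CD1 basal libraries and at 22.8 and 15.3 in the DNp63 basal libraries, next to 22.7 and 17.2 in CD1 luminal and 22.9 and 15.2 in DNp63 luminal libraries. The 4 basal libraries spanned 15.3 to 23.4 and the 4 luminal ones 15.2 to 22.9. The part of luminal RNA in the basal values of these ligands was not tested. Wnt7b was at 2.4 to 5 per 1000 in the 8 libraries, with overlap of the gates within each mouse, while all 4 DNp63 libraries (2.4 to 3.42) were below all 4 CD1 libraries (3.47 to 5). Wnt5b was at 1.32 to 2.65 in luminal libraries, and among basal libraries at 4.33 and 5.29 in CD1 mice and at 13 and 8.73 in DNp63 mice.

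**Figure D4:**
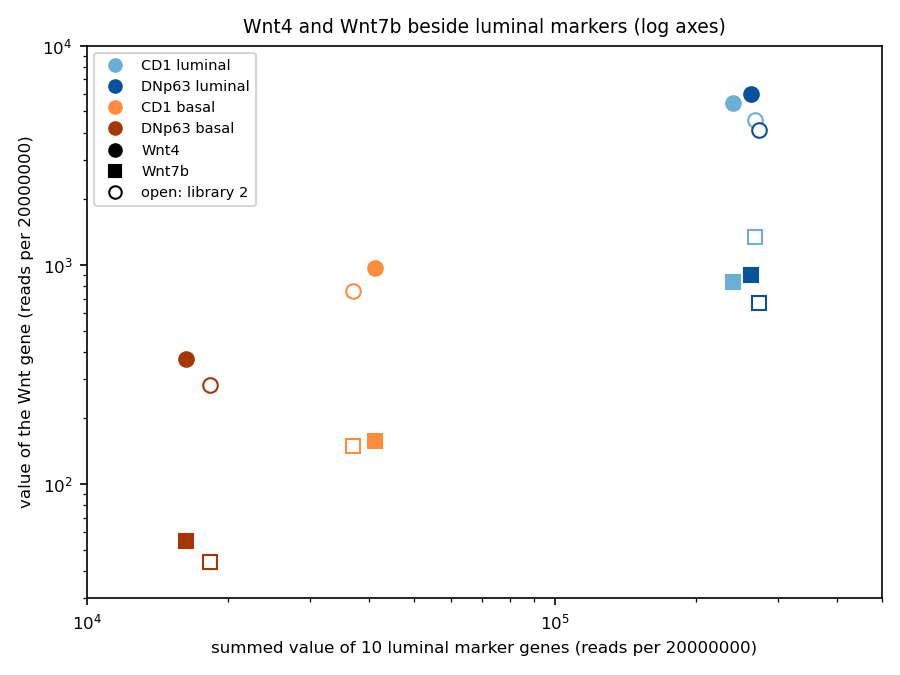
Value of Wnt4 (circles) and Wnt7b (squares) against the summed value of 10 luminal marker genes in the same library (both log axes, reads per 20000000), with filled symbols for the first and open symbols for the second library of a group. The 4 luminal libraries lie at the upper right, the CD1 basal libraries lower, and the DNp63 basal libraries, with luminal sums of 16244 and 18327, lowest for both genes.

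Several members overlapped between the 2 basal groups, among them Lgr5, Wnt9a, Fzd4, Sfrp1 and Wnt5b. Fzd7 was lower in both DNp63 basal libraries (5163 and 7508, against 9655 and 13155; -0.83 ± 0.22, limma adjusted p = 0.174), and Nkd2 was higher in both (856 and 1436, against 577 and 603; 0.92 ± 0.33, limma adjusted p = 0.326), without passing. A p that misses the threshold does not show that these levels were equal. Fibroblast markers, with summed values of 71942 and 95438 against 17435 and 47908, were higher in the same libraries, although none of the 14 was called (median 1.43).

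**Figure D5:**
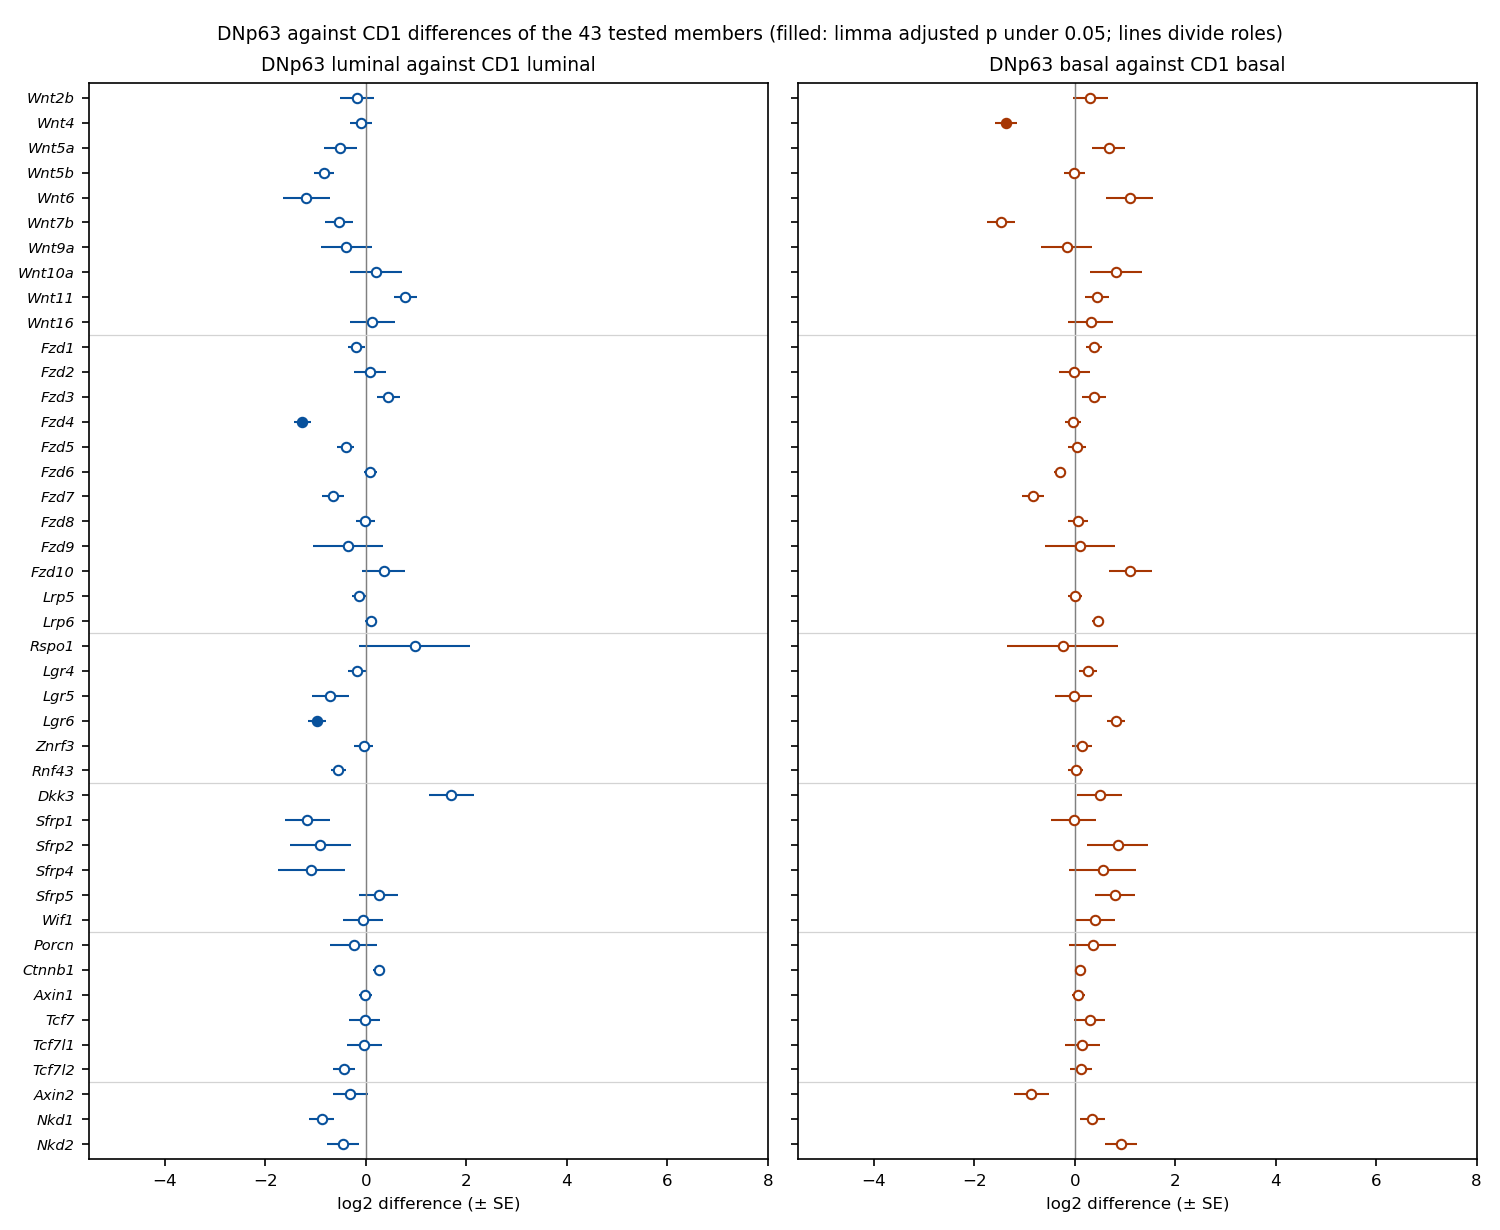
Log2 difference between DNp63 and CD1 cells (horizontal axis, ± SE from limma) for each of the 43 tested members in the luminal gate (left) and the basal gate (right), on the same scale as the plot of gate differences, with filled points for a limma adjusted p under 0.05. Most points lie within 1 log2 unit of 0, and the filled ones are Fzd4 and Lgr6 on the left and Wnt4 on the right.

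DNp63 basal cells against CD1 luminal cells gave 27 members higher and 4 lower, with a median of 1.60, against 26.4% and 20.5% of all genes. This comparison shares its CD1 luminal libraries with 2 of those above and its DNp63 basal libraries with the others, so its values are set beside theirs and are no independent evidence. Wif1 differed by 6.33, Wnt10a by 6.10, Dkk3 by 5.30, Nkd1 by 5.08 and Lgr5 by 4.92, and Wnt7b by -4.20 and Wnt4 by -3.90. Wnt4 fell between these groups from 5447 and 4590 to 371 and 281.

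The last question was whether the DNp63 difference was the same in both gates. The interaction takes the contrast of DNp63 with CD1 in basal cells and subtracts from it the same contrast in luminal cells. It passed for 1 member, which was higher, against 0.0828% of all genes called higher, 0.201% called lower and 0.284% called in all. It was Lgr6, at 1.79 ± 0.25 (SE, limma adjusted p = 0.0404). Lgr6 was lower in DNp63 than in CD1 cells in the luminal gate (-0.97) and higher in the basal gate (0.83, limma adjusted p = 0.0975), so that the basal-to-luminal difference was 0.73 in CD1 and 2.52 in DNp63 mice. The interaction was lost without filtering (limma adjusted p = 0.0822), with voom on recovered reads (0.0569), and without any 1 of the 4 DNp63 libraries or either CD1 basal library (0.1 to 0.173). Fzd4 (1.23, limma adjusted p = 0.0827), Wnt4 (-1.27, limma adjusted p = 0.146) and Wnt6 (2.27, limma adjusted p = 0.219) did not pass. Of the 43 members 11 had an unadjusted limma p under 0.05 in the interaction, against 10.5% of all genes.

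Of 58 rows for other genes of Wnt signalling, 53 were tested. In CD1 basal against luminal cells 23 were higher and 6 lower, with a median of 0.26, and in DNp63 mice 26 were higher and 6 lower. The shares called were 54.7% and 60.4%, against 44.3% and 48% of all genes. Those with the largest differences upwards in CD1 were Dact3 and Dact1, Dishevelled-binding modulators, by 4.40 and 3.50 log2 units, and Sostdc1, a secreted Wnt and BMP antagonist, by 4.01. Lower in basal cells were Ccnd1, the cyclin D1 gene, by -1.99 (3518 and 2023 in CD1 luminal, 847 and 523 in CD1 basal libraries), Celsr2, a cadherin of planar polarity, by -1.13, and Csnk1e, a kinase of Dishevelled, by -0.76. Between DNp63 and CD1 luminal cells only Kremen1, a Dkk receptor, was called (0.64, limma adjusted p = 0.0410). That is 1.89%, against 4.36% of all genes. Between the basal groups Ror1 and Ptk7, receptors of the beta-catenin-independent branch, were called (0.97 and 0.78, limma adjusted p = 0.0461 and 0.0325). That is 3.77%, against 0.651% of all genes. Ror1 was at 2399 and 2224 in DNp63 against 1035 and 1366 in CD1 basal libraries, and Ptk7 at 4363 and 5086 against 2802 and 2763. Neither call was followed under the alternatives. The fibroblast sum given above was also higher in these DNp63 basal libraries, and its part was not tested. None of the 53 was called by limma in the interaction, where 7 had an unadjusted p under 0.05, against 10.5% of all genes.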

How the data were processed

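Libraries of sorted cells were made with the Ovation Solo kit and sequenced on an Illumina NovaSeq, per the labels' protocols. STAR, HTSeq and the build GRCm38 (mm10) are named in the submitters' processing notes; versions, annotation release and strand: not given in the sources used here. Each deposited value is a score made by the authors: reads scaled to 20000000 per library and, as the values show, rounded up to whole numbers. Low values fell on steps of 1 read, and 99.8% to 99.9% of values were whole reads within rounding. TMM factors (trims of 30% and 5%) were computed over the 16900 genes with at least 40 in at least 2 libraries, and log2(value + 8) was fitted with limma 3.58.1 (R 4.3.3) with 4 group means, all 8 libraries, an intensity trend, and 4 residual and 4.631 prior degrees of freedom. Tests were two-sided with Benjamini-Hochberg adjustment over all genes tested, and the fit was tested on simulated data. Coordinates and exon lengths came from GENCODE M21. Replicates were no repeats of the same library (chi-square per degree of freedom 6.34 to 16.5). Members given in every library were Wnt4, Lgr5, Wif1, up to 6 called members with the largest differences per comparison without overlap between libraries and with a mean of at least 100, the member of each role with the highest level per kilobase, and any member called in the interaction. Others were named after their values were seen. The members and lists were chosen with earlier results of these data known. Alternatives were median-of-ratios or no further scaling, pseudocounts of 2 and 32, a filter at 100 or none, voom on recovered reads, a fit on the compared groups alone, a replicate block, and leaving out each library. A block within strain and TMM over all genes were added after the data were seen.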

Additional observations from a re-analysis of the deposited data

Results flagged for a closer look

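In the main fit, Lgr6 was the only member called in the interaction, at 1.79 log2 units (limma adjusted p = 0.0404). The call was lost without filtering (limma adjusted p = 0.0822) and with voom on recovered reads (0.0569). It was also lost when any DNp63 library or either CD1 basal library was left out, where the difference ran from 1.57 to 2.01. In the luminal gate both DNp63 libraries (1849 and 1867) were below both CD1 libraries (3330 and 3512), and in the basal gate both DNp63 libraries (8619 and 11395) were above both CD1 libraries (6547 and 4911).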

How the results depend on the processing

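The gate differences held best: 27 of the 31 members called in CD1 mice, 28 of 34 in DNp63 mice and 29 of 31 between DNp63 basal and CD1 luminal cells were called under every alternative run. In CD1 mice Lgr6 was lost without the first CD1 basal library (limma adjusted p = 0.0741), Fzd6 without the second (0.0609), while the calls nearest the threshold, Wnt16 and Fzd5, held under 7 of 18 and 5 of 19. Leaving out a library leaves its group with 1, which is assumed to vary like the others. None of the calls of Fzd4, Lgr6 and Wnt4 between the mice, nor the Lgr6 interaction, held under every alternative. Over all 43 tested members, 4578 of 4841 values under alternatives kept direction and call, 78 lost the call, 45 gained it and 140 changed sign, none of them a call in either fit, and where a cause is not given it was not tested. With no further scaling the median of all genes in the DNp63 gate comparison moved to -0.106, and 4123 genes were higher and 4371 lower, in place of 4507 and 3606.

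Between DNp63 and CD1 basal cells 110 genes and 1 member were called, against 61 genes and 0 members without a filter, 55 and 0 with voom, 0 members in a fit on the basal libraries alone, and 3 to 189 genes and 0 to 2 members when 1 library was left out. Between the luminal groups 737 genes and 2 members became 40 and 0 in a fit on those groups, and 179 to 1025 and 1 to 6 with 1 library left out. In the interaction 48 genes and 1 member became 104 genes with a pseudocount of 32, 14 and 0 without a filter, 16 and 0 with voom, and 4 to 172 and 0 to 2 with 1 library left out.

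Samples with the same number deviated together within a strain (correlation 0.34 in CD1 and 0.267 in DNp63 mice) and not across strains (-0.015 to 0.041), and the labels do not tie the numbers to animals. A replicate block over all groups gave 175 genes between the basal groups and 113 genes and 2 members in the interaction. The replicate block within strain, added after the data were seen, gave 356 and 462 genes and 2 and 4 members, with Fzd4 at 0.12, Lgr5 at 0.37 and Wif1 at -0.29 between the basal groups. Wnt4 passed in the interaction under both blocks (limma adjusted p = 0.0332 and 0.00732), Fzd4 within strain (0.0168), and Dkk3 between the luminal groups under both (0.015 and 0.00979).

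Of the changes of sign, 12 were in differences over 0.5, in Rspo1, Sfrp2, Sfrp4, Porcn and Wnt10a, such as Rspo1 in the CD1 gates (-1.16, and 0.82 without the first CD1 luminal library). Between the luminal groups Wif1 was 0 with no further scaling, and with 1 library left out Wif1 ran from -0.55 to 0.43, Wnt10a from -0.10 to 0.50 and Wnt4 from -0.36 to 0.18. Between the basal groups Ctnnb1 ran from -7e-04 to 0.22, Fzd4 from -0.26 to 0.19 and Lgr5 from -0.27 to 0.23. In the DNp63 gate comparison Ctnnb1 ran from -0.060 to 0.036, and in the interaction Fzd7 ran from -0.46 to 0.11, Wif1 from -0.031 to 0.95 and Wnt10a from -0.14 to 1.39.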
